A study of Mus musculus with 6 samples.

Results

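Genes of glycolysis and of the response to low oxygen were examined in cells of the mouse notochord lineage. They are 38 genes chosen by name: glucose transporters, glycolytic enzymes, lactate and pyruvate enzymes, the hypoxia-inducible factors, their hydroxylases and their targets. Of these, 35 genes had at least 1 probe set that the platform annotation gives a single symbol, with 76 probe sets in all, among 18194 genes and 34958 such probe sets. Gpi1, Eno1 and Bnip3l had none and were not analysed here. Eno2 lay below the filter on dim probe sets and Gapdh was carried only by the array's 3 control probe sets, which left 33 genes (66 probe sets) tested among 12628.

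All embryos were heterozygous for the Noto-GFP reporter on a mixed 129S3;ICR background, of mixed sex, at embryonic day 8.5 with a median of 6 somites. Noto is a homeobox gene of the node and of the cells that form the notochord, and no Noto probe set was used here. Tissue behind the boundary of somites SI and SII of 23, 39 or 52 embryos was combined, taken apart with 1% trypsin and sorted by fluorescence, which yielded roughly 2600, 4300 and 6600 GFP-positive cells for pools 1, 2 and 3. Each pool gave 1 array of GFP-positive cells and 1 array of the GFP-negative cells left from the same tissue, so each group holds 3 arrays of pooled animals, and the GFP-negative cells are a mixture of cell types. The question was how GFP-positive cells differ from their neighbours.

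Glycolysis splits glucose into pyruvate in the cytosol, and lactate dehydrogenase can turn pyruvate into lactate so that the pathway runs without oxygen. The hypoxia-inducible factors (HIF) are pairs of an oxygen-labile alpha subunit, such as Hif1a or Epas1, with a stable partner. Prolyl hydroxylases mark the alpha subunit for destruction when oxygen is present. When oxygen falls the pair binds DNA and raises many glycolytic genes, together with genes of vessel growth, mitophagy and growth arrest. Embryos of this stage are known to depend strongly on glycolysis.

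In GFP-positive cells 2 HIF targets, Ddit4 and Ndrg1, were about 4-fold higher, and another, Adm, was lower. Adm passed narrowly (limma, adjusted p = 0.0451), on a probe set that may hybridize to other transcripts. It passed in 2 of the 9 fits that left out 1 array or 1 pool, against 8 for Ddit4 and 7 for Ndrg1. No glucose transporter and no glycolytic enzyme passed the same test without a term for the pool. The test was limma on log2(intensity + 32) across all genes, with Benjamini-Hochberg adjustment and a threshold of 0.05. It called 2 of 33 members higher and 1 lower, against 2.6% and 1.41% of all 12628 genes tested. When each embryo pool was entered as a block, so that GFP-positive and GFP-negative cells of 1 pool were set against each other, 4 members were higher and 4 lower, against 8.4% and 6.76% of all genes. The 5 added by the block were Hk2 and Aldoc (higher) and Pfkl, Pfkp and Pgk1 (lower).

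Facts of the arrays bear on these values. The 3′ over 5′ signal ratio of the Gapdh control probe sets, a measure of RNA intactness, was 14.0 (GFP-positive) and 15.4 (GFP-negative) in pool 1, and from 1.6 to 2.22 in pools 2 and 3. For the Actb controls it was 14.9 (GFP-positive) and 22.7 (GFP-negative) in pool 1, and from 1.90 to 2.75 in pools 2 and 3. In every pool the GFP-negative array had the higher ratio for both controls. In pool 3 the ratios were 1.71 (GFP-positive) and 2.22 (GFP-negative) for Gapdh, and 1.90 and 2.75 for Actb. Of 16 node and notochord markers tested, 12 passed as higher in limma (15 at an unadjusted p under 0.05). Markers of other cell types also differed: 9 of 12 endothelial and 9 of 12 lateral mesoderm markers were lower, and 6 of 13 presomitic and 5 of 11 gut endoderm markers were higher, with 1 gut endoderm marker (Hhex) lower. Of 9 neural plate markers 0 passed in limma (3 with positive and 2 with negative changes at an unadjusted p under 0.05). Because each array is a bulk sample, fewer cells of a type and less RNA per cell cannot be told apart.

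Ddit4, also called Redd1, is an inhibitor of mTORC1 signalling that low oxygen, energy stress and DNA damage are known to induce. Its intensity was 2067, 2311 and 1618 in GFP-positive cells of pools 1, 2 and 3, and 438, 408 and 481 in GFP-negative cells. Every GFP-positive array was higher than every GFP-negative array, and the GFP-negative arrays lay close together. Ddit4 rose by 2.09 ± 0.21 on the log2 scale (SE; limma, adjusted p = 0.00270), or 4.24-fold. Within pools the differences were 2.16, 2.41 and 1.68. It passed in 8 of the 9 fits that left out 1 array or 1 pool, and missed without pool 2 (1.92, adjusted p = 0.167).

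Ndrg1 encodes a cytoplasmic protein linked to growth arrest and differentiation and is a standard marker of hypoxia. Its brightest probe set read 1597, 969 and 1003 in GFP-positive cells and 226, 327 and 242 in GFP-negative cells. The groups did not overlap, and GFP-positive cells of pool 1 stood highest. Ndrg1 rose by 2.02 ± 0.26 on the log2 scale (SE; limma, adjusted p = 0.00729), with differences of 2.66, 1.48 and 1.92 within pools. Each of its 4 other probe sets was also higher, by 1.18 to 1.78, and passed when p-values were adjusted over probe sets. By its suffix the brightest probe set may hybridize to other transcripts as well. Dimmer probe sets without such a suffix had 1.21 and 1.23. Their ratios of mean intensity between the groups were 3.91 and 3.74, against 4.49 for the brightest. Without pool 2 or pool 3 the call was lost (adjusted p = 0.142 and 0.111), at log2 changes of 2.29 and 2.07.

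Adm encodes adrenomedullin, a secreted peptide that widens vessels and is needed for vascular development. Its kept probe set read 27.3, 27.9 and 40.2 in GFP-positive cells and 74.5, 239 and 191 in GFP-negative cells. The groups did not overlap, GFP-positive values lay not far above the array medians of 19.8 to 28.0, and the GFP-negative array of pool 1 was the lowest of its group. Adm had a log2 fold change of -1.55 ± 0.34 (SE; limma, adjusted p = 0.0451) and differences of -0.84, -2.18 and -1.62 within pools. Blocking on pool gave an adjusted p of 0.00758. The call was lost with an offset of 64 in place of 32 (0.0535; 1.18% of genes lower) and with no filter (0.0723; 0.506% lower). It was also lost when any 1 array other than GFP-negative array 1 was left out (adjusted p between 0.0957 and 0.173), and without pool 2 or 3 (0.563 and 0.319). By its suffix the probe set may hybridize to other transcripts as well. A second Adm probe set, without that suffix, lay below the filter and did not show the difference: it read 10.1, 5.06 and 8.83 in GFP-positive cells and 0.475, 12.8 and 18.6 in GFP-negative cells, with overlap and with differences of 0.38, -0.27 and -0.31 within pools.

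Most markers of vessels, blood and lateral mesoderm had negative changes, as Adm did; the exceptions by value were the endothelial Sox17 (0.61, positive in all 3 pools) and, close to zero, the erythroid Epor (-0.02). The summed intensity of 12 endothelial markers ran from 493 to 899 in GFP-positive and from 1934 to 2790 in GFP-negative cells. For 11 primitive erythroid markers the sums ran from 404 to 5861 and from 12256 to 29218; 1 passed, and 10 passed with the block. For 12 lateral mesoderm markers they ran from 468 to 816 and from 2848 to 6268. In GFP-positive cells 4 erythroid, 4 endothelial and 2 lateral mesoderm markers lay at or under the array median on all 3 arrays, and none was listed at 0. Genes that cell dissociation can induce had overlapping sums, from 8921 to 10664 in GFP-positive and from 7998 to 14017 in GFP-negative cells. Much of each sum came from the bright Dnajb1, at 4315 to 4817 in GFP-positive and 5080 to 9888 in GFP-negative cells. Of the 19 dissociation genes, 0 passed in limma. At an unadjusted p under 0.05 there were 4 with positive and 3 with negative changes. With the block 3 and 2 passed, against 8.4% and 6.76% of all genes. The 3 were Fos, Egr1 and Ier2 (log2 changes of 0.93, 1.04 and 1.12), higher in all 3 pools. The 2 were Klf6 and Dnajb1 (-0.81 and -0.67), lower in all 3 pools. The part of these markers in the values of Adm, Ddit4 and Ndrg1 was not tested.

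**Figure D1:**
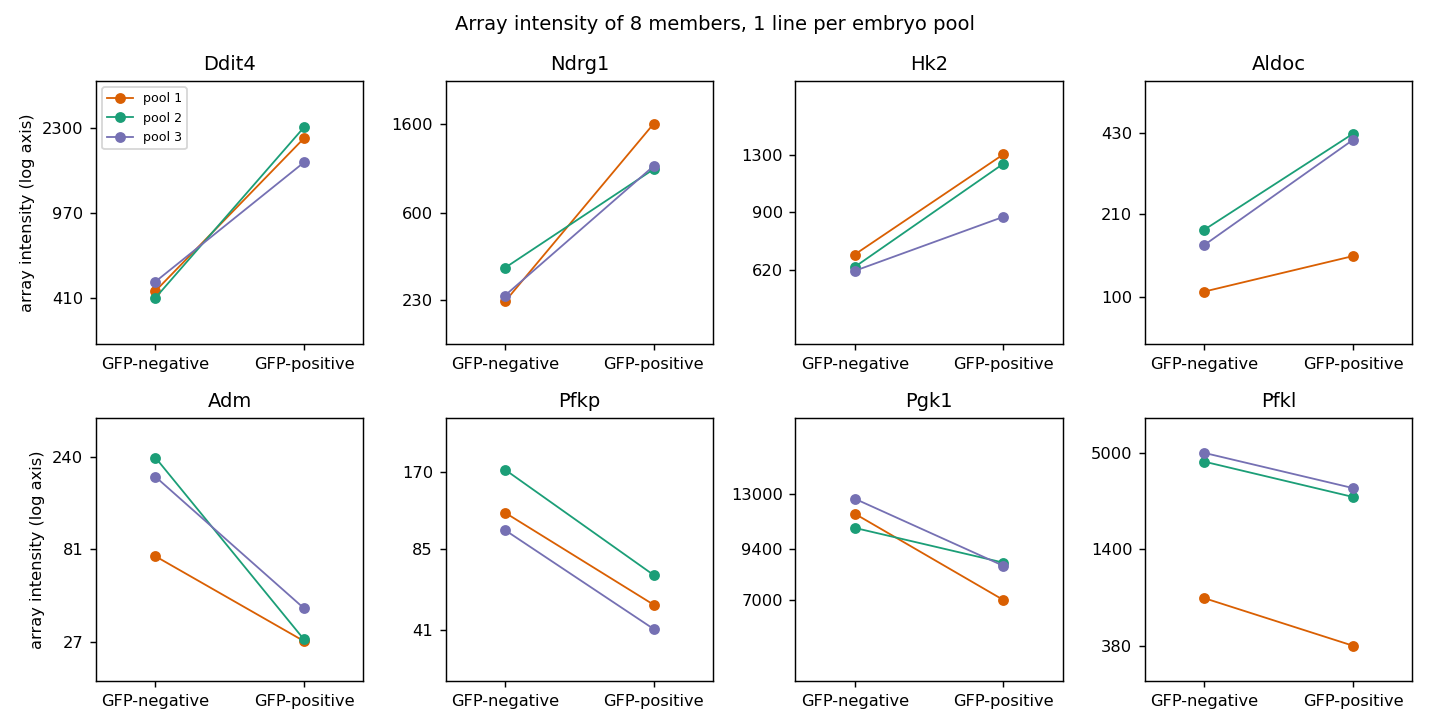
Array intensity (vertical, log axis) of 8 members in GFP-negative and GFP-positive cells, with 1 point per array and 1 line per embryo pool. Ddit4 and Ndrg1 run upward steeply in all 3 pools and Adm downward, while Pfkl falls in parallel lines with pool 1 far below the others (382 and 721 against 2787 to 5020).

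The regions before the starts of 4 genes are shown because HIF binds the short sites ACGTG and GCGTG, and these genes stand for each kind of call. Ddit4 and Adm passed the test in opposite directions, and Hk2 and Pgk1 passed in opposite directions only with the pool as a block. Each line gives the 250 bases before the start in gene sense, from RefSeq on GRCm38.p6, with every match on either strand in capitals; on the opposite strand a match reads CACGT or CACGC. Ddit4 lies at chr10:59951771-59952020 (minus strand), Adm at chr7:110627407-110627656 (plus strand), Hk2 at chr6:82774455-82774704 (minus strand) and Pgk1 at chrX:106186850-106187099 (plus strand).
Ddit4: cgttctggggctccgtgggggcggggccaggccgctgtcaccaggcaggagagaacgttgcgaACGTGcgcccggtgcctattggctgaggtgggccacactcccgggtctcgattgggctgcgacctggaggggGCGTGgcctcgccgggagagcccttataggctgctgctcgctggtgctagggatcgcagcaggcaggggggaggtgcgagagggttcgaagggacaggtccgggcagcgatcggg
Adm: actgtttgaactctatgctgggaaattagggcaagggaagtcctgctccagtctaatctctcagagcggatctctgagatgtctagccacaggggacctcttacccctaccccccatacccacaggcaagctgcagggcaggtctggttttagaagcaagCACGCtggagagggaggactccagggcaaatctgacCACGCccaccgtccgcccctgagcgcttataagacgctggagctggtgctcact
Hk2: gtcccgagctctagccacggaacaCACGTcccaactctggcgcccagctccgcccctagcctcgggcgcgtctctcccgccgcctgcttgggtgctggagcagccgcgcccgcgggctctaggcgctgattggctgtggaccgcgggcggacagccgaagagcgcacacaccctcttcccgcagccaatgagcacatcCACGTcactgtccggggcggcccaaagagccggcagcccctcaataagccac
Pgk1: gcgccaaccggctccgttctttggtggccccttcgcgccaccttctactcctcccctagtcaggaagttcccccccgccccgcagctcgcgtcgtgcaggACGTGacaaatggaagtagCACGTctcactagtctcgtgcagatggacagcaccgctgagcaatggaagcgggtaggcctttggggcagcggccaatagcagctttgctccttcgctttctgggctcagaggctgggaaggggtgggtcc

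Each of the 4 windows held 2 matches. Those of Ddit4, both in the gene's own sense, began 187 (ACGTG) and 115 (GCGTG) bases before the start, while both in Adm were GCGTG on the opposite strand, at 90 and 54. Hk2 held ACGTG on the opposite strand at 226 and 52, and Pgk1 held it once on each strand, at 150 and 131. Among these 4 chosen windows ACGTG was found in Ddit4, Hk2 and Pgk1, and GCGTG in Ddit4 and Adm. Whether matches go with the direction of change was not tested. No window was available for Ndrg1. Of 42 windows of 30 tested members in the table, 35 (83.3%) held at least 1 match, against 54.8% of 13039 windows of all tested genes, at a median GC content of 61.0% and 59.6%. A palindrome CACGTG matches on both strands, and neighbouring matches can share a base. The list holds many genes known to respond to HIF, so this share is a description of the list, and a match is not a bound site.

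Glucose transporters were bright on every array and had lower values in GFP-positive cells, which did not pass in either fit. Slc2a1 (Glut1), the main basal glucose carrier, read 3585, 4082 and 4155 in GFP-positive cells and 4635, 5799 and 6446 in GFP-negative cells. The groups did not overlap, at a log2 fold change of -0.50 ± 0.18 (SE; limma, adjusted p = 0.158, or 0.0520 with the block). Its other probe sets had changes of -0.81 and -0.99, and both passed with the block over probe sets (adjusted p = 0.0301 and 0.0307 in limma). Slc2a3 (Glut3), a high-affinity carrier of early embryo and neuron, read 4484, 5190 and 5404 against 5719, 6483 and 7116, again without overlap, at -0.35 ± 0.16 (adjusted p = 0.256). After quantile normalization the value was -0.24. Of its other 3 probe sets, at -0.13 to -0.63, the dim one at -0.63 passed with the block over probe sets (adjusted p = 0.0438 in limma).

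The hexokinases, which trap glucose as its phosphate, went opposite ways. Hk2, the inducible isoform, read 1302, 1226 and 872 in GFP-positive cells and 685, 633 and 617 in GFP-negative cells. The lowest GFP-positive array stood above the highest GFP-negative one, and the log2 fold change was 0.76 ± 0.22 (SE; limma, adjusted p = 0.0937, or 0.0251 with the block). Hk1, the widely expressed isoform, read 66.5, 76.6 and 102 against 53.6, 207 and 212. Its GFP-negative array of pool 1 was the lowest of all 6, so that pool 1 differed by 0.20 and pools 2 and 3 by -1.14 and -0.87. The fitted change was -0.60 ± 0.40 (limma, adjusted p = 0.409), and -1.0 without pool 1 (adjusted p = 0.00280). Without pool 1, 17.1% of all genes passed as lower. Hk1 missed without pool 2 or 3 (adjusted p = 0.929 and 0.877).

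Among the phosphofructokinases, which commit sugar to glycolysis, the platelet and liver forms had negative differences in all 3 pools. Pfkp read 51.3, 67.2 and 41.2 in GFP-positive cells and 118, 174 and 101 in GFP-negative cells. These values are low but did not overlap, and the log2 fold change was -0.92 ± 0.24 (SE; limma, adjusted p = 0.0707, or 0.0109 with the block). Its other 2 probe sets were dimmer, at -0.43 and -0.49, and passed in neither fit. Pfkl read 382, 2787 and 3138 against 721, 4466 and 5020, so that both arrays of pool 1 lay far below the rest. Within pools its differences were close to each other, at -0.86, -0.67 and -0.67. The fit gave -0.74 ± 0.91 (adjusted p = 0.669), and the block brought the SE to 0.15 (adjusted p = 0.0189). A second bright Pfkl probe set had -0.81 and also passed with the block over probe sets (adjusted p = 0.0209 in limma), and the dim remaining one had -0.05. The muscle form Pfkm overlapped between groups, at 0.11 ± 0.48, or an SE of 0.17 with the block (limma, adjusted p = 0.666).

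The aldolases split the 6-carbon sugar, and their main and brain forms differed. Aldoc, the brain form, read 144, 429 and 406 in GFP-positive cells and 105, 182 and 159 in GFP-negative cells. GFP-positive cells were higher within every pool, by 0.36, 1.11 and 1.20, but the arrays of pool 1 were low and the groups overlapped. The log2 fold change was 0.89 ± 0.39 (SE) in limma (adjusted p = 0.227, or 0.0277 with the block), and 1.15 without pool 1 (adjusted p = 0.000823). Without pool 1, 19.3% of all genes passed as higher. Aldoc missed without pool 2 or 3 (adjusted p = 0.827 and 0.780). Aldoa, the main form, had -0.05 ± 0.27, with 5347 and 5247 in GFP-positive and 4454 and 4850 in GFP-negative cells of pools 2 and 3, and 2708 and 3923 in pool 1. Its 4 other probe sets ran from -0.98 to 0.22. Triose phosphate isomerase Tpi1 had -0.25 ± 0.35, or an SE of 0.16 with the block (limma, adjusted p = 0.308). The regulators Pfkfb3 and Pfkfb4, which set the level of the phosphofructokinase activator fructose 2,6-bisphosphate, had 0.36 ± 0.27 and 0.04 ± 0.22.

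In lower glycolysis Pgk1, the first enzyme of the pathway that makes ATP, was among the brightest members. It read 7013, 8710 and 8550 in GFP-positive cells and 11571, 10656 and 12622 in GFP-negative cells. The groups did not overlap, at a log2 fold change of -0.52 ± 0.15 (SE; limma, adjusted p = 0.10, or 0.0461 with the block). After quantile normalization, without the block, the change was -0.19 (adjusted p = 0.548). Its 2 other probe sets, at -0.40 and -0.41, passed in neither fit, and over probe sets the brightest one did not pass with the block (adjusted p = 0.0569 in limma). Pgam1, Pkm and Eno3, a mutase, the pyruvate kinase and the muscle enolase, had -0.21 ± 0.18, -0.12 ± 0.44 and 0.18 ± 0.22. With the block the SE of Pkm was 0.14 (limma, adjusted p = 0.577), at differences of -0.07, -0.13 and -0.17 within pools. Gapdh is seen only through the control probe sets. Its 3′ probe set read 5826, 7162 and 6994 in GFP-positive and 8547, 7469 and 9171 in GFP-negative cells, which did not overlap. Added to the fit, an alternative chosen after seeing the data, it had -0.33 ± 0.16 (adjusted p = 0.271, or 0.165 with the block), and the 5′ and middle probe sets had -0.10 and -0.15.

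Lactate dehydrogenase subunits differed in sign. Ldha, the subunit that favours lactate and a classic HIF target, read 6510, 8912 and 8678 in GFP-positive cells and 10168, 9597 and 11370 in GFP-negative cells. The groups did not overlap, at -0.38 ± 0.17 (SE; limma, adjusted p = 0.245, or 0.124 with the block). After quantile normalization the change of Ldha was -0.07 (adjusted p = 0.870), and that of Ldhb 0.35. Ldhb, the heart subunit, had a log2 fold change of 0.38 ± 0.25 and was higher within each of 3 pools. Its 3 other probe sets had 0.57, 0.66 and 0.85, and the last passed with the block over probe sets (adjusted p = 0.0236 in limma). Whether Ldha and Ldhb differ from each other was not tested.

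Among the carriers and switches at the end of the pathway none passed in either fit. Slc16a1 (Mct1), a carrier of lactate and pyruvate, read 2418, 2936 and 2653 in GFP-positive cells and 2484, 1874 and 1149 in GFP-negative cells. It was flat in pool 1 and higher in GFP-positive cells of the other 2 pools. The fitted log2 change was 0.60 ± 0.28 (limma, adjusted p = 0.257), and 0.91 without pool 1 (adjusted p = 0.0108). Without pool 1, 19.3% of all genes passed as higher. Slc16a1 passed in 2 of the 9 fits that left out 1 array or 1 pool. Slc16a3 (Mct4), the lactate exporter of glycolytic tissue, had -0.23 ± 0.43, or an SE of 0.17 with the block (limma, adjusted p = 0.380). The pyruvate dehydrogenase kinases Pdk1 and Pdk3, which keep pyruvate out of the mitochondrion, had -0.32 ± 0.24 and 0.30 ± 0.22.

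**Figure D2:**
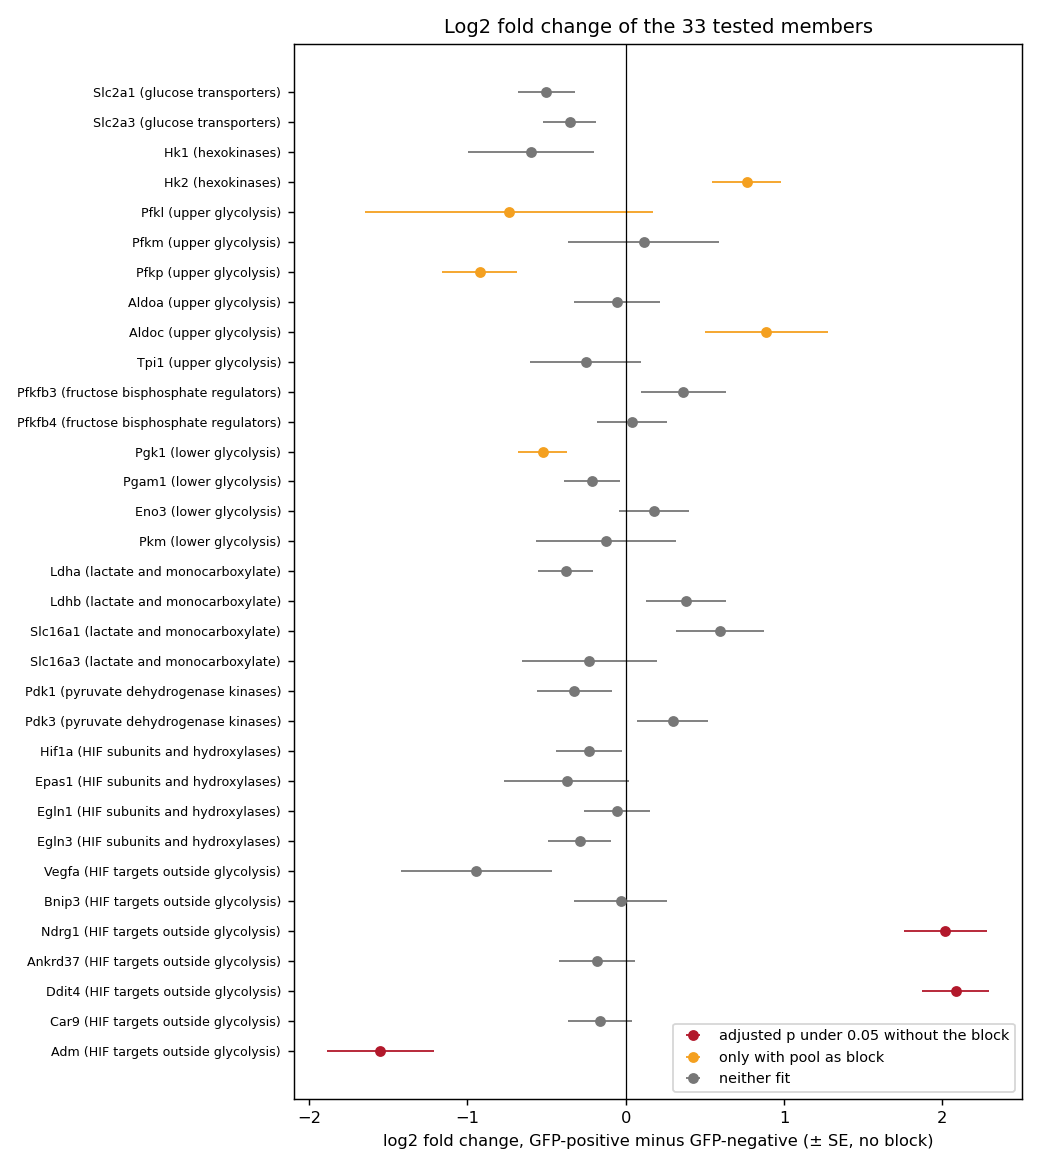
Log2 fold change of the 33 tested members, GFP-positive minus GFP-negative (horizontal), with bars of ± 1 SE from the fit without a block; colours give which fit each gene passed. Ddit4 and Ndrg1 lie near 2 and Adm at -1.55, and 21 of 33 members lie within 0.5 of zero.

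The sensors and regulators of the oxygen response passed in neither fit. Hif1a, the alpha subunit that drives glycolytic targets, had a log2 fold change of -0.23 ± 0.21 at intensities of 2005 to 2380 in GFP-positive and 2092 to 3179 in GFP-negative cells. Its other kept probe sets had -0.66, without overlap and lower in all 3 pools, and -0.04. Without pool 1 the brightest had -0.44 (limma, adjusted p = 0.0325), in a fit where 17.1% of all genes passed as lower. It passed in 1 of the 9 fits that left out 1 array or 1 pool. The protein, which oxygen controls, was not measured. Epas1 (HIF-2 alpha), prominent in endothelium, had -0.37 ± 0.40, or an SE of 0.19 with the block (limma, adjusted p = 0.196). Egln1, the main prolyl hydroxylase, had -0.06 ± 0.21, and its other probe set 0.07. Egln3, a hydroxylase that HIF itself induces, read 127, 162 and 147 in GFP-positive cells and 197, 180 and 176 in GFP-negative cells. Those groups did not overlap, at -0.29 ± 0.20 (limma, adjusted p = 0.424), and its dimmer probe set, at -1.02, passed with the block over probe sets (adjusted p = 0.0432).

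Among the members, the remaining HIF targets outside glycolysis did not follow Ddit4 and Ndrg1 by their values. Vegfa, the growth factor of vessels, read 115, 122 and 130 in GFP-positive cells and 94.3, 332 and 535 in GFP-negative cells. GFP-positive arrays were nearly level while GFP-negative arrays spread widely, so pools 2 and 3 differed by -1.24 and -1.81 and pool 1 by 0.22. The fit gave -0.94 ± 0.48 (limma, adjusted p = 0.288), and without pool 1 -1.52 (adjusted p = 0.00126). Without pool 1, 17.1% of all genes passed as lower. Vegfa passed in 2 of the 9 fits that left out 1 array or 1 pool. A second, dimmer Vegfa probe set had 0.34, and the mean over both had -0.30. Bnip3, a mitophagy receptor, had -0.03 ± 0.29 and Ankrd37, an ankyrin repeat protein induced by HIF, had -0.18 ± 0.24. Car9, a carbonic anhydrase and one of the most hypoxia-specific genes known, had -0.16 ± 0.20. It read between 6.03 and 31.4 on the 6 arrays, against array medians of 19.8 to 28.0. On GFP-positive array 3 (6.03) and GFP-negative array 2 (9.02) it lay below the 40th percentile of the array. Eno2, the neuronal enolase, read between 1.61 and 17.5 and was not tested.

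**Figure D3:**
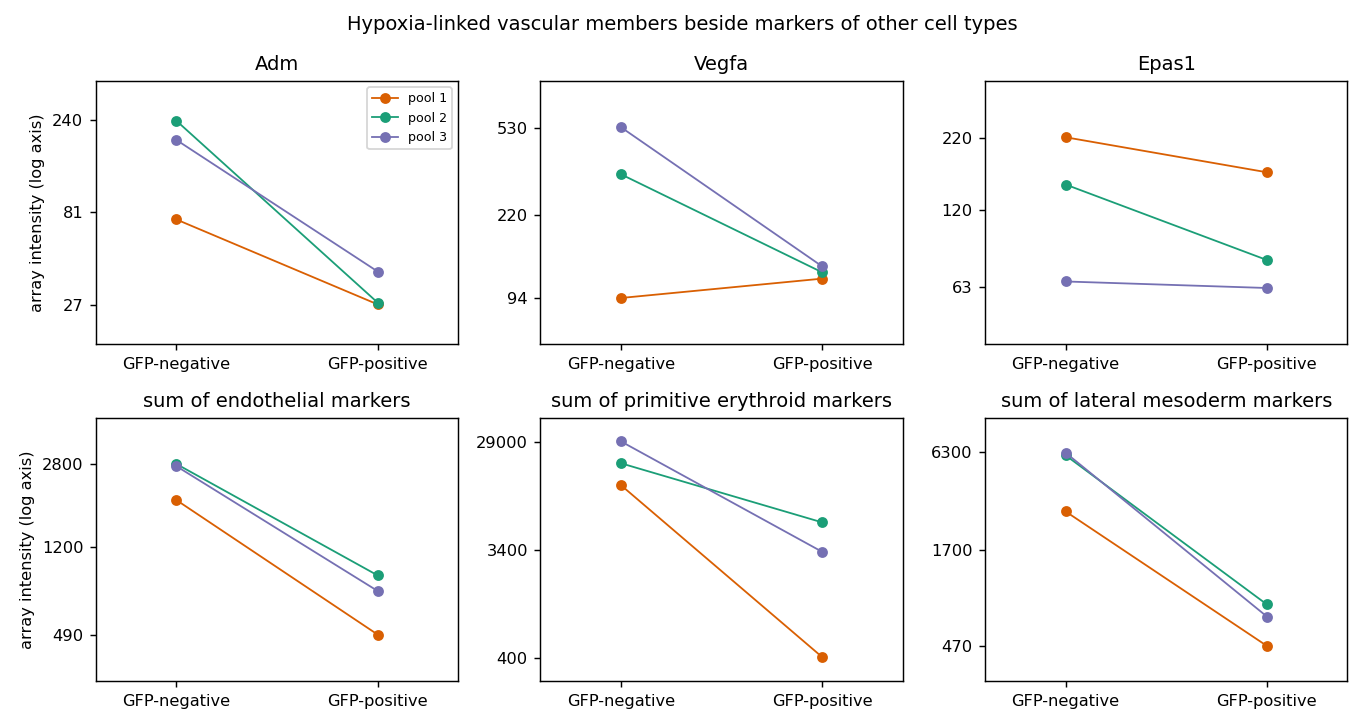
Array intensity (vertical, log axis) of Adm, Vegfa and Epas1 above the summed intensity of endothelial, primitive erythroid and lateral mesoderm markers, with 1 point per array and 1 line per embryo pool. The 3 marker sums are lower in GFP-positive cells in every pool, as is Adm, while Vegfa differs in pools 2 and 3 only (-1.24 and -1.81).

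As a list, the members leaned to lower values in GFP-positive cells by a small amount. Their median log2 fold change was -0.18, against 0.01 over all 12628 genes, and 22 of 33 were negative. The median was -0.17 for the 22 transporters, enzymes and pyruvate genes and -0.18 for the 11 HIF subunits, hydroxylases and targets. Within pools the members' median was -0.32, -0.02 and -0.17. With a whole pool left out it was -0.12, -0.23 and -0.16 (without pools 1, 2 and 3). With single arrays left out, which breaks a pair, it turned to 0.07 without GFP-positive array 1 and reached -0.01 without GFP-negative array 3. It was -0.09 after quantile normalization, when the median of all genes was 0.05.

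Agreement between pools gave the same lean. GFP-positive cells were lower in all 3 pools for 13 of 33 members, against 24.9% of all genes, and higher in all 3 for 6, against 28.4%. Groups did not overlap for 7 members that were lower (Slc2a1, Slc2a3, Pfkp, Pgk1, Ldha, Egln3 and Adm), against 12.2% of all genes. For 3 members that were higher (Hk2, Ndrg1 and Ddit4) the share of all genes was 15.6%. These counts are descriptions of a chosen list on the deposited scaling, and were not repeated after quantile normalization.

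**Figure D4:**
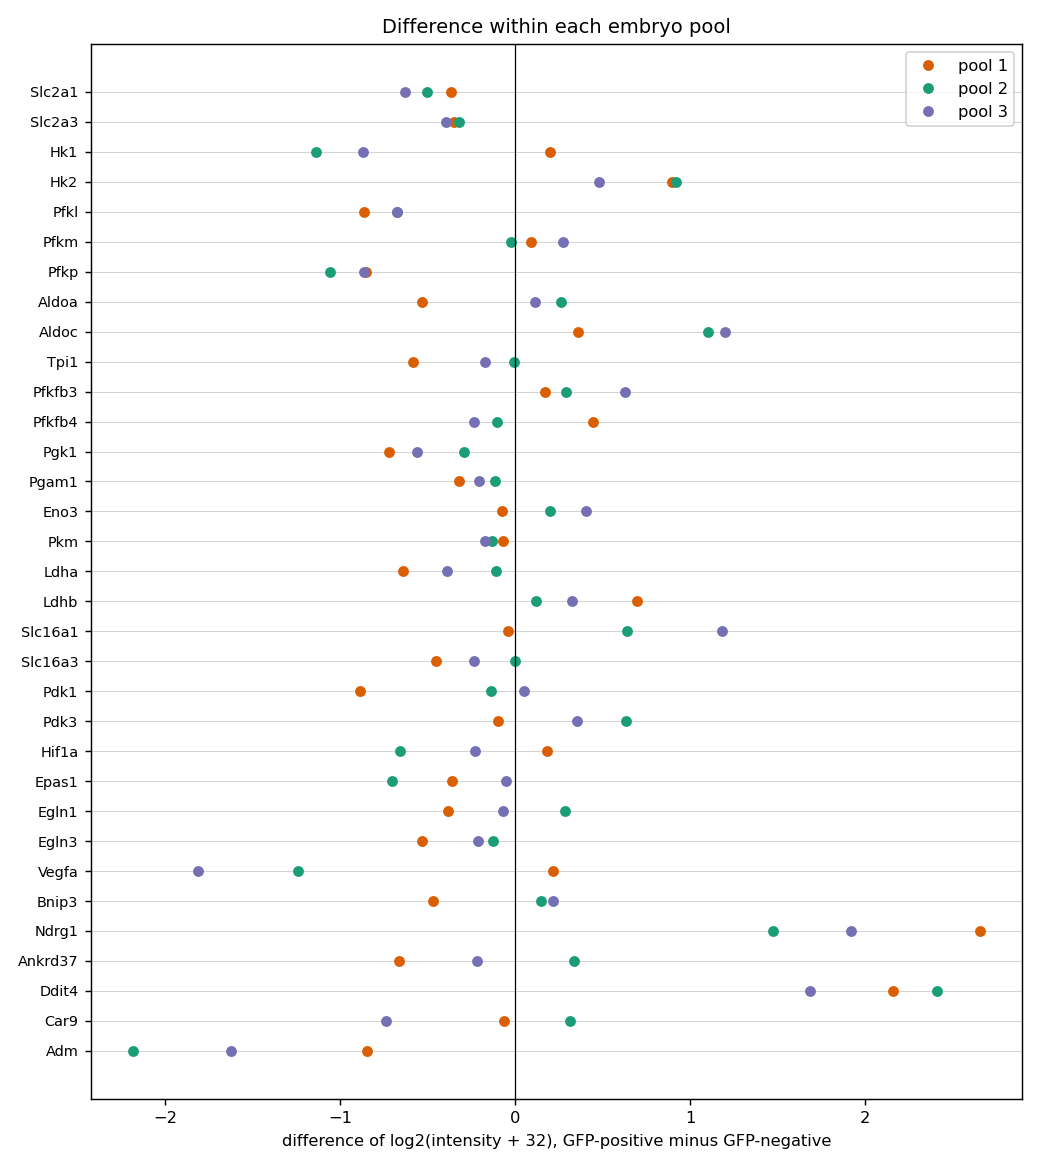
Difference of log2(intensity + 32) between GFP-positive and GFP-negative cells (horizontal) for each tested member, with 1 point per embryo pool. The 3 points of Ddit4 and Ndrg1 lie right of 1.4, those of Pfkl, Pfkp and Slc2a1 lie left of zero, and pool 1 lies on the other side of zero from pools 2 and 3 for Vegfa and Hk1, among others.

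Leaving out pool 1, whose control ratios stood apart, changed how many members passed. On pools 2 and 3 alone 6 members were higher and 9 lower, against 19.3% and 17.1% of all genes. The higher ones were Hk2, Aldoc, Slc16a1, Pdk3, Ndrg1 and Ddit4. The lower ones were Slc2a1, Slc2a3, Hk1, Pfkl, Pfkp, Pgk1, Hif1a, Vegfa and Adm. With only 2 arrays in each group this rests on few samples. Ddit4, Ndrg1 and Adm had log2 changes of 2.05, 1.70 and -1.90 there. With the block as well, Pfkfb3 joined the higher ones, for 7 and 9 members against 22% and 20.2% of all genes.

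Other arrays also set how many members passed. Without GFP-negative array 1 there were 4 higher (Hk2, Slc16a1, Ndrg1 and Ddit4) and 6 lower (Slc2a1, Hk1, Pfkp, Pgk1, Vegfa and Adm), against 10.1% of all genes in each direction. Without GFP-positive array 1 there were 3 higher (Aldoc, Ndrg1 and Ddit4) and 0 lower, against 2.34% and 1.52%. Ddit4 and Ndrg1 alone passed without GFP-positive array 2 (0.744% of all genes higher, 0.182% lower) or 3 (0.689% and 0.127%), and without GFP-negative array 2 (0.483% and 0.0792%) or 3 (0.847% and 0.293%). Ddit4 alone passed without pool 3 (0.253% and 0.00792%), and 0 members passed without pool 2 (0.0396% and 0%; 2 higher and 3 lower members had an unadjusted p under 0.05, against 4.55% and 2.99% of all genes). At a threshold of 0.1 on all 6 arrays Hk2 and Pfkp were added, for 3 higher and 2 lower members against 5.14% and 3.6%.

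Other probe sets of a member mostly had the sign of the brightest one. Of 15 members with more than 1 kept probe set, 4 (Aldoa, Pdk1, Egln1 and Vegfa) had at least 1 of the opposite sign. Besides Ndrg1 and Adm, the brightest probe sets of Aldoa, Tpi1 and Slc2a3 carry a suffix for possible hybridization to other transcripts. So do the other probe sets of Aldoa and Pgk1. Over probe sets, 6 of 66 were higher and 0 lower in limma (against 1.26% and 0.55% of 27821), the 6 being the 5 of Ndrg1 and the 1 of Ddit4. With the block 9 were higher and 8 lower, against 4.93% in each direction. The Adm probe set passed over probe sets with the block (adjusted p = 0.0109) and not without it (adjusted p = 0.0638).

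**Figure D5:**
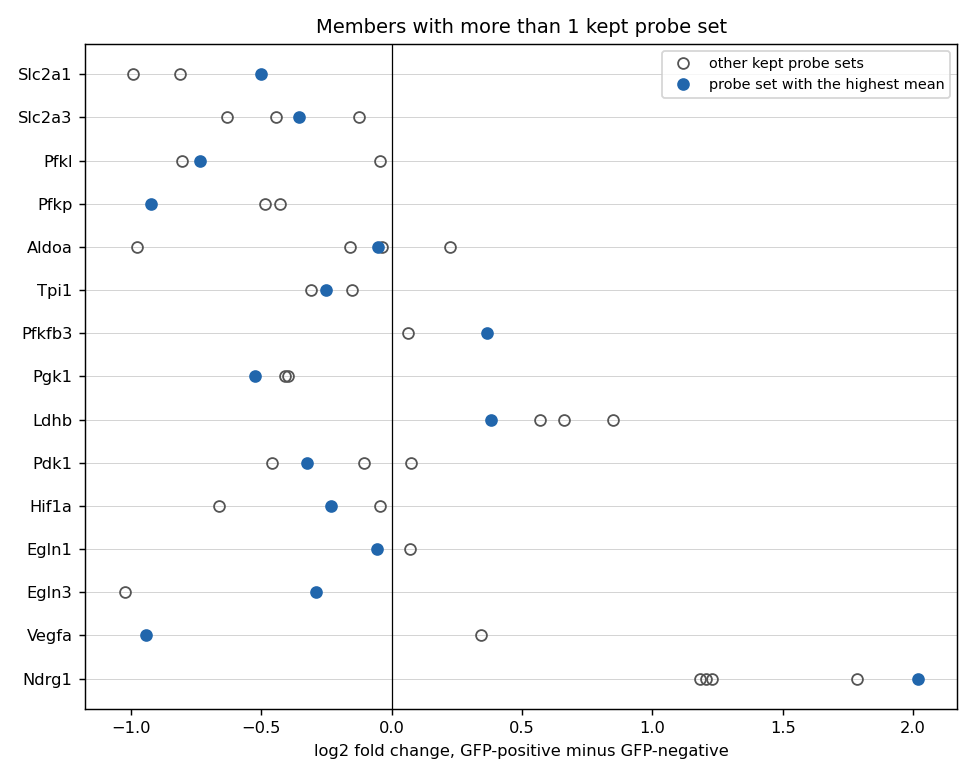
Log2 fold change (horizontal) of every kept probe set of the 15 members with more than 1; filled points are the brightest probe set, which stands for the gene, and open points are the others. All 5 probe sets of Ndrg1 lie above 1, and the 3 of Slc2a1 and of Pgk1 lie below zero.

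Genes around these pathways were put to the same test, which called 2.6% of all genes higher and 1.41% lower. Of 28 further glycolysis and pyruvate genes tested, 0 passed in limma (1 in each direction at an unadjusted p under 0.05), with a median log2 fold change of -0.02. The largest values there were -0.97 ± 0.37 for Gapdhs, the sperm glyceraldehyde phosphate dehydrogenase, and 0.66 ± 0.16 for Hkdc1, a hexokinase-like gene, both dim; Hkdc1 passed with the block (adjusted p = 0.0290). Of 15 pentose phosphate and glycogen genes, 1 was higher and 0 were lower, with a median of 0.01. It was Pygl, the liver glycogen phosphorylase that releases glucose from glycogen, at 661, 618 and 744 in GFP-positive cells and 199, 278 and 256 in GFP-negative cells. It rose by 1.36 ± 0.21 on the log2 scale (SE; limma, adjusted p = 0.0145).

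Of 48 further HIF pathway genes, 1 was higher and 0 were lower, against 2.6% and 1.41% of all genes, with a median of 0.06. At an unadjusted p under 0.05 in limma there were 7 higher and 5 lower, against 12.0% and 9.67% of all genes. Mxi1, a Myc antagonist that HIF induces, read 242, 264 and 293 in GFP-positive cells and 127, 137 and 124 in GFP-negative cells, and rose by 0.88 ± 0.20 (SE; limma, adjusted p = 0.0478). With the block 6 were higher and 4 lower, or 12.5% and 8.33% of the list, not far from the 8.4% and 6.76% of all genes. The 6 were Mxi1, Hif3a, Elob, Siah2, Narf and Pnrc1. The 4 were Arnt, Hsp90aa1, Ero1a and Tfrc. Hif3a, an alpha subunit that can act as an inhibitor, had 0.68 ± 0.19 (adjusted p = 0.0300 with the block), and Arnt, the stable partner of the alpha subunits, had -0.83 ± 0.28 (adjusted p = 0.0344 with the block). Ero1a, a protein-folding oxidase induced by HIF, had -0.97 ± 0.36 (adjusted p = 0.00903 with the block).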

How the data were processed

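Total RNA of 6 samples was amplified in both cycles of an Affymetrix kit and hybridized with a biotin label, per the labels' protocols. The deposited values are 1-colour intensities on a linear scale, made with GCOS 1.4, per the submitters' processing notes; the mean without the outer 2% of values at each end was 150 on all 6 arrays. The genome build is not given in the sources used here. Intensities were taken to log2(value + 32), which understates changes of dim genes. The filter required the 40th percentile of the array or more on at least 3 of 6 arrays and left 27821 of 45101 probe sets (64 were controls and stayed out). Of the others, 34945 had 1 gene symbol, 932 several and 9160 none here; 7 with several symbols named a member and were not used. Unused per-sample columns numbered 0.

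The fit used limma 3.58.1 in R 4.3.3 (eBayes with a variance trend; group as the only term), each gene was represented by its brightest probe set, and p-values were adjusted over 12628 genes. The script was checked on simulated data. All 35 member genes were found by gene identifier in RefSeq (GRCm38.p6) under the same symbol, and promoter windows were matched for 32 of them. Tables and figures used Python 3.11.15.

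Per the labels, arrays with 1 number share 1 embryo pool and are pairs. Correlations of the paired deviations around each group mean were 0.542, 0.286 and 0.436. No further replication is stated, so all p-values rest on these 3 pools. Without the block they measure the spread of arrays within each group and leave the pairing out. With the block they measure the spread of the differences within pools. Values after ± are SEs of the fit without the block, which leave the pairing out. The pool as a block was an alternative and is printed where it changes a call. Other alternatives were offsets of 16 and 64, quantile normalization, no filter, a 60th percentile filter, no variance trend, the mean over probe sets, a threshold of 0.1, and each array or pool left out with the same probe sets kept. With 3 arrays a group, exact permutation of a single gene cannot give p under 0.1, so none is given; the number of arrays limits the precision.

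Members that passed in either fit or whose groups did not overlap are given in every array, others by fitted change, with the 3 largest in full; of each further list the genes that passed, or the 2 with the largest change, are named, and genes that passed only with the block were added. Members and lists were chosen with earlier results of these data known.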

Additional observations from a re-analysis of the deposited data

How the results depend on the processing

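Of the 33 members, Ddit4 and Ndrg1 kept their call under both offsets, quantile normalization, both other filters, no variance trend, the mean over probe sets and the pool as a block. Adm missed with an offset of 64 (adjusted p = 0.0535 in limma) and with no filter (0.0723), where 0 members were lower (4 at an unadjusted p under 0.05 in each, against 9.62% and 9.26% of all genes). At a threshold of 0.1, 3 members were higher and 2 lower. The pool as a replicate block gave 4 higher and 4 lower members and ended no call. It gave 8 and 4 genes of the further lists (28, 15 and 48 genes tested), against 2 and 0 without it. Of all genes 8.4% and 6.76% passed with the block, and 2.6% and 1.41% without it. The block on pools 2 and 3 alone, chosen after seeing the data, gave 7 and 9 members, and 15 and 13 genes of the further lists. There 22% and 20.2% of all genes passed.

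Leaving out 1 array or 1 pool gave between 0 and 6 members higher and between 0 and 9 lower, and 0 to 13 and 0 to 12 genes of the further lists. Shares of all genes ran from 0.0396% to 19.3% higher and from 0% to 17.1% lower. The members' median ran from -0.27 to 0.070 (-0.23 to -0.12 with whole pools left out). For the further lists no filter gave 1 higher gene and the mean over probe sets 4, against 1.24% and 3.42% of all genes. Quantile normalization, the 60th percentile filter and no variance trend each gave 1 lower, against 1.43%, 1.64% and 1.46%. So did a fit over 1 probe set a gene, chosen after seeing the data (1.71%).

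Signs turned only for members that did not pass without the block. Aldoa had 0.033 after quantile normalization and Egln1 0.0068 with the mean over probe sets. With the block on pools 2 and 3 the values were 0.19 for Aldoa, -0.17 for Pfkfb4, 0.11 for Egln1, 0.19 for Bnip3 and 0.058 for Ankrd37. When 1 array or pool was left out, ranges were -1.62 to 0.21 for Pfkl, -0.33 to 0.57 for Pfkm, -0.22 to 0.27 for Aldoa, -0.49 to 0.15 for Tpi1, -0.17 to 0.18 for Pfkfb4, -0.57 to 0.29 for Pkm, -0.57 to 0.22 for Slc16a3, -0.23 to 0.11 for Egln1, -0.21 to 0.30 for Bnip3, -0.44 to 0.058 for Ankrd37 and -0.40 to 0.13 for Car9. Leaving out a single array breaks a pair. With whole pools left out Pfkl stayed between -0.77 and -0.67, Pfkm between 0.03 and 0.18 and Tpi1 between -0.38 and -0.09. Pkm and Slc16a3 stayed negative there, as they were within each pool. The cause of the other turns was not tested. Quantile normalization moved Pgk1 from -0.52 to -0.19 and Ldha from -0.38 to -0.07. Car9 lies near or below the array medians on all 6 arrays, and Adm and Pfkp lie nearer to them in GFP-positive than in GFP-negative cells. At such low values the offset understates a change.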
